A study of Mus musculus with 2 samples.

Results

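Bone morphogenetic protein 4 (BMP4), its type I receptor, the SMAD proteins of its pathway and the Id genes were compared between mouse embryonic stem cells of the E14 line with an Mll2 knockdown by short hairpin RNA (shRNA) and E14 cells with a control shRNA. The 10 genes are Bmp4, Bmpr1a, Smad1, Smad5, Smad6, Smad7, Id1, Id2, Id3 and Id4. Their probe sets were taken by annotation: every probe set whose platform annotation names only 1 of these symbols, 24 of the 45037 probe sets that remain once control probe sets are set aside. The rule for the probe sets uses no measured value, although the genes were chosen with earlier results of these data known. E14 is an established mouse embryonic stem cell line, and both groups received a lentivirus. The protocol text, which is the same for both samples, gives 24 h of infection and then 5 days of selection in puromycin, a drug that kills cells without the vector. The only labelled difference between the groups is the shRNA, for Mll2 (a histone H3 lysine 4 methyltransferase) or control. Total RNA was read on Affymetrix 3' expression arrays. Each group has 1 array, called here the knockdown array and the control array. Without replicates no difference can be set against variation between cultures, and neither a test nor a p-value is given.

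BMP4 is a secreted ligand that brings together type I and type II receptor kinases at the cell surface. The type I receptor then phosphorylates SMAD1 and SMAD5, which enter the nucleus with SMAD4 and bind regulatory DNA. Smad6, Smad7 and the Id genes are classical targets of this signal. SMAD6 and SMAD7 feed back to inhibit it, and the ID proteins hold basic helix-loop-helix (bHLH) transcription factors away from DNA. In mouse embryonic stem cells, BMP4 together with leukaemia inhibitory factor is known to sustain self-renewal, with Id genes among the effectors.

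Sequences just upstream of the transcription start are shown for Bmp4, the member with the largest difference between the arrays, for the feedback inhibitor Smad6, and for the 3 Id genes with a window in the table. They are the 250 bases before the annotated start, 5' to 3' on the strand of the gene, from RefSeq on build GRCm38.p6. Capitals mark GGCGCC and also GCCGNC (both GC-rich, letters that SMAD1 and SMAD5 can bind) as well as CAGAC (letters of the SMAD binding element), each on either strand. Where marks touch or overlap they form 1 longer run of capitals.
Bmp4 (chr14:46390670-46390919, minus strand): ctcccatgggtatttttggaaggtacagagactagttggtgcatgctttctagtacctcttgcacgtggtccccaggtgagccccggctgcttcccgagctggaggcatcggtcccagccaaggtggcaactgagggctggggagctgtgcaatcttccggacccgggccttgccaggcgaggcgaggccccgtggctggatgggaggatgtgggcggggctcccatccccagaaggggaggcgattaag
Smad6 (chr9:64022060-64022309, minus strand): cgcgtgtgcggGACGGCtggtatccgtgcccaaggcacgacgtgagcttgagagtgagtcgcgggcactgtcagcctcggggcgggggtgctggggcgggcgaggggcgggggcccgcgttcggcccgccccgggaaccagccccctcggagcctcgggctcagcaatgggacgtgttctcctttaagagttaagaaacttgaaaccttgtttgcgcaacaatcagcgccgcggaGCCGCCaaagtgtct
Id2 (chr12:25096093-25096342, minus strand): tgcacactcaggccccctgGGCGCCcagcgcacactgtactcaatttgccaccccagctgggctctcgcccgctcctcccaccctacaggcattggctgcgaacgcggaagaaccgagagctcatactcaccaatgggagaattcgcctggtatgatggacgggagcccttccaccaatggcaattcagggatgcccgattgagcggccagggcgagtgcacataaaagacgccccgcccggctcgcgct
Id3 (chr4:136143572-136143821, plus strand): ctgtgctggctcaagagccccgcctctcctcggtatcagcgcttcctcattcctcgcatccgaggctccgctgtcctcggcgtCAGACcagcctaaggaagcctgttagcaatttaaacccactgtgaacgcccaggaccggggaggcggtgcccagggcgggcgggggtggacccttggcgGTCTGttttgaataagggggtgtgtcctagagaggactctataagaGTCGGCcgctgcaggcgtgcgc
Id4 (chr13:48260866-48261115, plus strand): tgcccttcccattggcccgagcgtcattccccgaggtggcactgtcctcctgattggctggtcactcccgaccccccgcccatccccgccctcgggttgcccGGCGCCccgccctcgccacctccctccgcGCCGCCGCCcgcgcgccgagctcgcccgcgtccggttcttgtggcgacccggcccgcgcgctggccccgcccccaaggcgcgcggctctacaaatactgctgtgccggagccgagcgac

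The Bmp4 window held none of the marked letters. Smad6 had GCCGNC 2 times, with first bases 239 and 15 bases before the start. Id2 had GGCGCC once, 231 bases before the start. Id3 had CAGAC on each strand, at 167 and 68 bases, and GCCGNC at 22 bases. Id4 had GGCGCC at 148 bases and a pair of overlapping GCCGNC matches at 119 and 116 bases. Windows were used for 8 of the 10 genes, all but Id1 and Smad7. They covered 10 start sites in all because Smad5 has 3, of which the first 2 overlap. The selection left out a whole chromosome, and whether Id1 or Smad7 has a window there was not read. GGCGCC lay in 4 of the 10 windows and in 9.59% of all 32851 windows of the same length, and GCCGNC in 7 of 10 against 27.4%. Counted by gene, GGCGCC lay in 4 of the 8 and GCCGNC in 5. CAGAC lay in 2 of 10 against 42.2%, and GTCT, which CAGAC contains on its opposite strand, in 7 of 10 against 82.9%. The E-box CANNTG, the site class of bHLH factors, lay in 4 of 10 windows against 66.2%, with 3 matches in Bmp4, first CACGTG, then CAGGTG and last CAACTG. The TATA box letters TATAAA lay in 0 of 10 against 12.4%. The windows of the members were rich in G and C, from 60% in the first Smad5 window to 78.8% in Bmpr1a, where the median over all windows was 52.4%, and motif shares were not matched on this. A match describes letters only and is no evidence of binding.

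The arrays themselves were alike in scale. Their median log2 values were 6.01 (Mll2 shRNA) and 6.02 (control), and a floor at the 50th percentile of all values, a signal of 64.7, left 11805 named genes with a value above it on an array, which are called measured. The 3' minus 5' difference of the beta-actin control probe sets, a sign of RNA quality, was 0.77 in the knockdown array and 0.96 in the control. The targeted transcript was checked through both mouse genes that have been called Mll2. Kmt2d had a signal of 335 in the knockdown array and 736 in the control (log2 ratio -1.14, probe set 1435550_at), and Kmt2b 852 and 901 (log2 ratio -0.08). All 10 markers of embryonic stem cells looked up here, such as Pou5f1, Sox2 and Nanog, were above the floor on both arrays, with 5 ratios above 0, 5 below and a median of -0.07. Klf4 (0.59), Esrrb (0.53) and Nanog (0.47) were the highest of the 10 and Fgf4 (-0.65), Pou5f1 (-0.44) and Utf1 (-0.41) the lowest, each beyond the spread of at most 0.27 at its level. The other probe sets of Esrrb ran from -0.22 to 0.75 and those of Fgf4 from -0.40 to 0.12, so both genes had probe sets of opposite sign.

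Bmp4 was the member that differed most. Its only probe set, 1422912_at, had a signal of 690.4 in the knockdown array and 1238 in the control, 1.79-fold lower with the Mll2 shRNA (log2 ratio -0.84). The other 9 genes lay between -0.13 and 0.40 on the same scale each gene being represented by its probe set with the highest mean value. Smad1, Smad7, Smad6 and Id3 had ratios from 0.34 to 0.40, Bmpr1a was at 0.26 in its brightest probe set, and Id1, Id4, Id2 and Smad5 differed by at most 0.13 in size. No member probe set reached 2-fold.

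**Figure D1:**
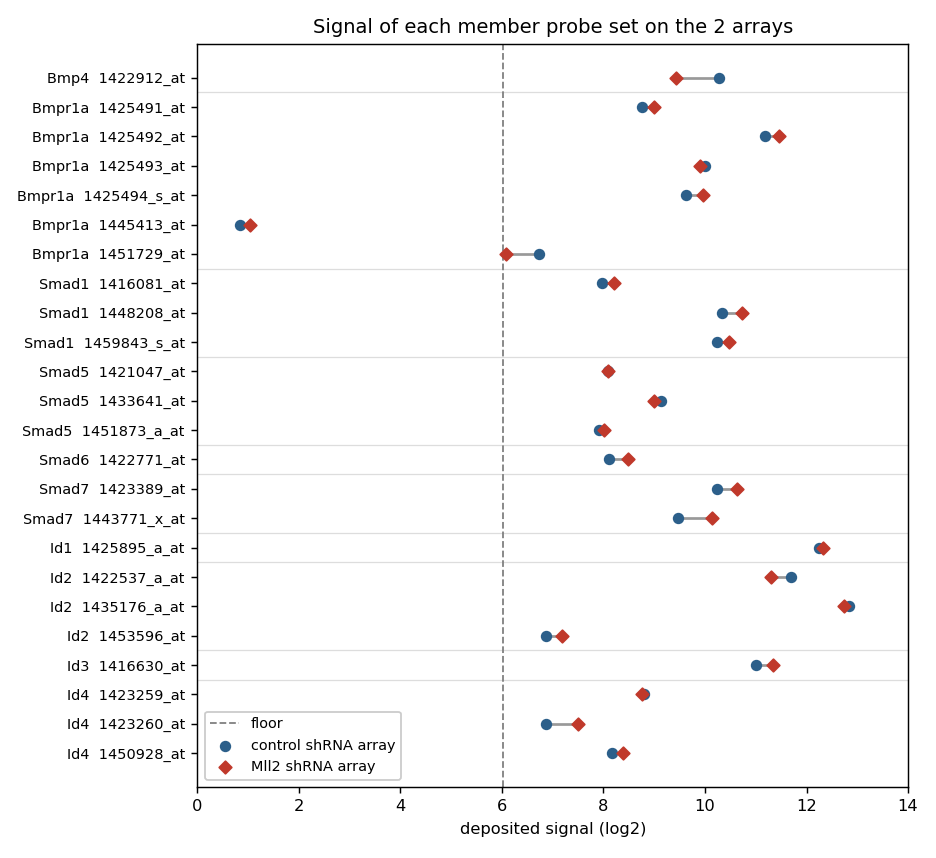
Deposited signal (x axis, log2) of each of the 24 member probe sets (rows) on the control array (blue circles) and the knockdown array (red diamonds, labelled Mll2 shRNA), with the floor as a dashed line. The longest line between the arrays is that of Bmp4, from 10.27 in the control to 9.43 with the Mll2 shRNA, and 1 Bmpr1a probe set lies far below the floor on both arrays.

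Of the 24 probe sets, 23 lay above the floor on both arrays, and the remaining one, Bmpr1a probe set 1445413_at, was below it on both, with signals of 2.04 and 1.79. At least 2-fold apart were 0 of the 10 genes, against 2.45% of all measured genes, and 0 of the 23 measured probe sets, against 2.19% of all measured probe sets that name 1 gene. At least 1.5-fold lower in the knockdown array was 1 gene, Bmp4, against 4.68% of all measured genes. At least 1.5-fold higher were 0 of the 10, against 7.40%. Of the 23 probe sets, 4 (17.4%) were at least 1.5-fold apart, 2 in each direction, against 12.4% overall. The median over the 10 genes was 0.17, beside 0.03 over all measured genes, and 6 of the 10 were above 0, beside 53.5% of all. These shares lie near the background, so they are no result about the members as a group.

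With 1 array per group, the only yardstick within the data is how much genes of like signal differed. For each probe set, the spread is 1.4826 times the median absolute deviation of the log2 ratios over the 500 genes whose mean level is nearest. It mixes true differences with noise and says nothing of variation between cultures. The Bmp4 ratio was 3.03 times the spread of 0.28 at its level, and only 2 of the 500 nearest genes had a lower ratio. A ratio larger than the spread was found for 4 of the 10 genes (Bmp4, Smad1, Smad7 and Id3), against 33.4% of all measured genes.

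**Figure D2:**
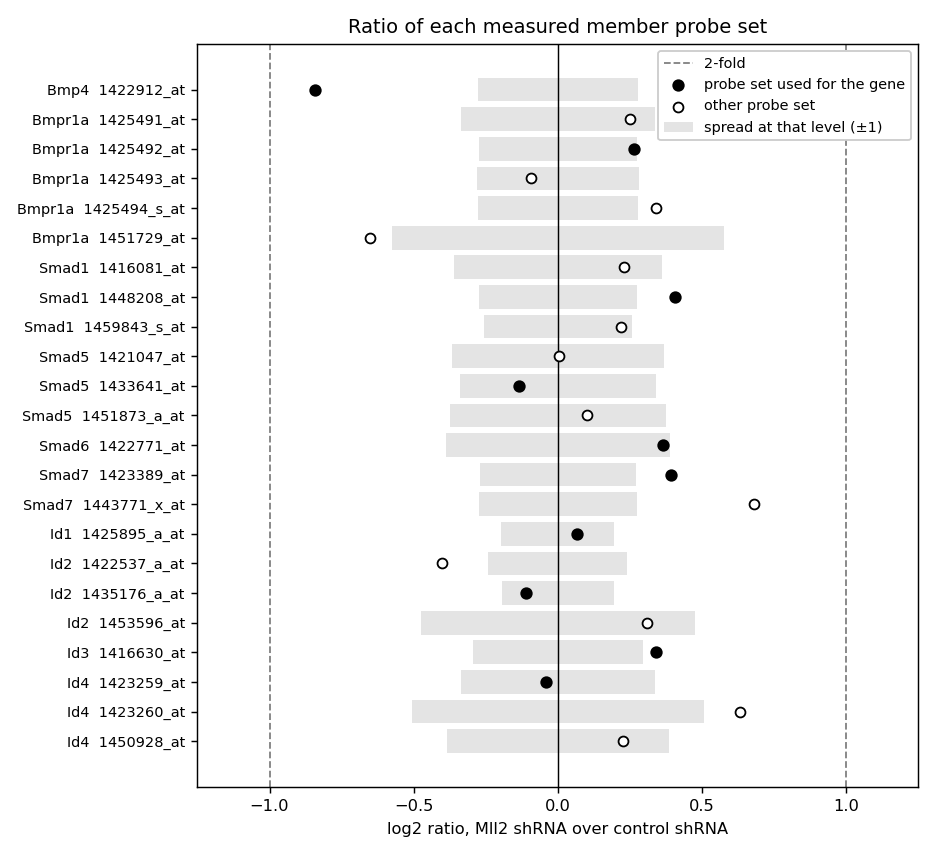
Log2 ratio of Mll2 shRNA over control shRNA (x axis) for the 23 measured member probe sets (rows), with filled circles for the probe set used for the gene and open circles for the others. Grey bars span plus and minus the spread at that level and dashed lines mark 2-fold; Bmp4 lies at -0.84, well outside its bar, while all other filled circles lie between -0.13 and 0.40.

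Bmpr1a encodes a type I receptor that transduces BMP4. Its brightest probe set, 1425492_at, had a signal of 2803 in the knockdown array and 2336 in the control, a log2 ratio of 0.26 within the spread of 0.27. Its other measured probe sets gave 0.34 (1425494_s_at, 998 and 788), 0.25 (1425491_at, 512 and 430), -0.09 (1425493_at, 953 and 1017) and -0.65 (1451729_at, 67.7 and 106). The last of these was only just above the floor. The 5 probe sets thus disagreed in direction, with a mean of 0.02 ± 0.41 (SD over 5 probe sets), and no direction is given for the gene.

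SMAD1 and SMAD5 carry the signal from the receptor to the nucleus. For Smad1, 3 of 3 probe sets were higher in the knockdown array. Probe set 1448208_at had a signal of 1704 against 1287 in the control (log2 ratio 0.40, spread 0.27), 1459843_s_at had 1413 against 1213 (0.22), and 1416081_at had 296 against 252 (0.23). The mean was 0.28 ± 0.10 (SD over 3 probe sets). Smad5 was nearly level between the arrays, at 510 and 559 in the probe set used (-0.13), at 273 and 272 in 1421047_at (0.0032) and at 257 and 240 in 1451873_a_at (0.10). The Smad5 probe sets averaged -0.01 ± 0.12 (SD over 3), each within the spread of at least 0.34 at its level. Whether Smad1 and Smad5 differ from each other could not be tested.

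SMAD6 and SMAD7 inhibit the receptor and the receptor SMADs, and both transcripts had higher signals in the knockdown array. Smad7 was higher in both of its probe sets, with 1592 against 1214 in 1423389_at (log2 ratio 0.39, spread 0.27) and 1131 against 707 in 1443771_x_at (0.68, or 1.60-fold, spread 0.28). The suffix _x_at marks probe sets that can also bind other transcripts, so the smaller value rests on the more specific probes. Smad6 had a signal of 356 against 276 in its only probe set (0.36), within the spread of 0.39 at its level. All 3 probe sets lay above the floor on both arrays, so the floor has no part in these values. Under 4 other scalings of the arrays the Smad7 ratio lay between 0.36 and 0.51 and that of Smad6 between 0.29 and 0.48.

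The Id genes showed no common direction. Id3 had a signal of 2599 in the knockdown array and 2052 in the control, a log2 ratio of 0.34 in its only probe set, somewhat above the spread of 0.30. Id1 was nearly equal on the arrays, at 5095 and 4864 (0.07), within the spread of 0.20. It was read by only 1 probe set, whose suffix _a_at marks probes shared by several transcripts of a gene.

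Id2 and Id4 each gave probe sets of both signs. Id2 was lower in 1435176_a_at, at 6786 against 7327 (-0.11), and in 1422537_a_at, at 2512 against 3316 (-0.40, spread 0.24), and higher in 1453596_at, at 145 against 117 (0.31, spread 0.47). The mean over the Id2 probe sets was -0.07 ± 0.36 (SD over 3). Id4 was level in 1423259_at, at 430.2 against 443 (-0.04), and higher in 1450928_at, at 334 against 286 (0.22), and in 1423260_at, at 180.1 against 116 (0.63, or 1.55-fold, spread 0.51). The Id4 mean was 0.27 ± 0.34 (SD over 3), while the probe set used for the gene lay below 0. For Id2 and Id4 the sign also turned to 0.01 and 0.08 when the arrays were scaled on the bacterial spike-in controls, so no direction is given for either.

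Of the 6 members with several measured probe sets, 2 had all of them on the same side of 0, Smad1 and Smad7. Such probe sets may overlap in target sequence and come from the same hybridisations, so their agreement does not stand in for replicate cultures. The share of all genes whose probe sets agree in this way was not computed, so the count is no result about the members. In bulk RNA, fewer cells expressing a gene and less RNA per cell cannot be told apart, and this holds for the lower Bmp4 signal as well.

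**Figure D3:**
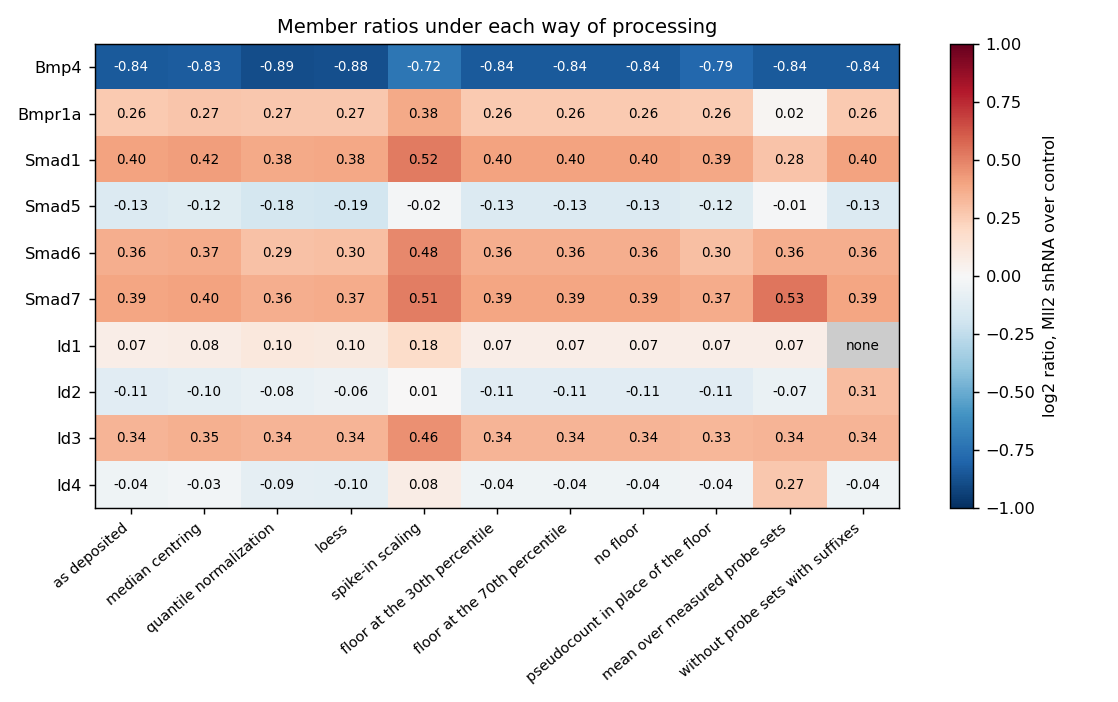
Log2 ratio of Mll2 shRNA over control shRNA (colour and printed number) for the 10 members (rows) as deposited and under 10 other ways of processing (columns). Bmp4 stays between -0.89 and -0.72 throughout, and Id2 and Id4 are the members that change sign; Id1 has no value without suffixed probe sets.

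The rest of the pathway was described with 7 lists of other genes, 88 in all, of which 63 were measured. With values under the floor raised to it, 0 of the 63 were at least 2-fold apart and 8 (12.7%) at least 1.5-fold, 4 in each direction, against 12.1% of all measured genes. Of the 63, 57 were above the floor on both arrays, and the ratios of the rest are lower bounds in size, so the counts are minimums. Other settings were read only for the pathway genes named by rule, the 3 with the largest ratio in size per list. Among these, Hand1 passed 2-fold with the floor at the 30th percentile, with no floor and with the pseudocount. Bmp8b did so with the mean over its probe sets (-1.09). Genes outside the rule were not read in this way, such as Chrdl2, whose signals of 19.5 and 65.6 lie far apart without a floor. The median ratio of the 63 was 0.08, with 39 above 0 and 24 below. The 8 were 2 ligands, 3 receptors, 2 target genes and 1 bHLH partner of the ID proteins.

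Of 15 other BMP ligand genes 7 were measured, 4 above 0 and 3 below, with a median of 0.04 that turned negative with the floor at the 30th or 70th percentile or with no floor. The lowest were Bmp8b and Bmp8a. Bmp8b had a signal of 155 in the knockdown array and 287 in the control (log2 ratio -0.89, spread 0.40), and 67.7 against 165 in its other probe set (-1.28). Bmp8a had 87.8 against 153 (-0.80, spread 0.45). Bmp8a and Bmp8b are closely related copies, so their probe sets may not be independent. Gdf9, an oocyte growth factor, was above the floor in the knockdown array only and was higher by at least 1.35-fold. Bmp2, the closest relative of Bmp4, was at 245 and 273 (-0.16). Bmp2 is named outside the rule for named genes, after its value was seen.

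Among receptors and co-receptors, 9 of 11 were measured, 7 above 0 and 2 below, with a median of 0.21. Neo1, which encodes a receptor that also binds the BMP co-receptors of the RGM family, had 1032 against 604 (0.77, spread 0.28), but its other probe sets ran from -0.0015 to 0.66, and it was under 1.5-fold with the mean over probe sets (0.46) and without suffixed probe sets (0.40). Acvr1, a type I receptor, had 721 against 446 (0.69, spread 0.34), and at least 0.46 in its other probe set, which was above the floor on 1 array only. Bmpr1b, the close relative of Bmpr1a, had 117 against 73.0 (0.68, spread 0.53), near the floor. These 3 were at least 1.5-fold higher, and no receptor was 1.5-fold lower.

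Extracellular antagonists and modulators were mostly not measured: 7 of 18 passed the floor, with a median of 0.22 (-0.0027 without suffixed probe sets). Nog and Chrd, which encode the antagonists noggin and chordin, were below it on both. Bambi, a decoy receptor that is itself a BMP target, had 630 against 783 (-0.31, spread 0.31). Fstl1, a follistatin-like secreted protein, was at 3844 and 3154 (0.29), and Twsg1, a BMP-binding modulator, at 976 and 830 (0.23), with negative ratios in its other probe sets. The 6 genes of this list above the floor on both arrays were all under 1.5-fold. Chrdl2, chordin-like 2, was above it in the control only (19.5 against 65.6), so its ratio of -0.02 is a lower bound in size; it is named outside the rule, after its value was seen.

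The shared and TGF-beta branch SMADs were close to level. Smad4, the common partner of all receptor SMADs, had 4909 against 4580 (0.10), Smad2 1151 against 1246 (-0.11) and Smad3 657 against 677 (-0.04). Smad2 and Smad3 turned to above 0 with spike-in scaling, and Smad2 also without suffixed probe sets (0.03). Smad9, the third BMP receptor SMAD, was below the floor on both arrays. All 18 intracellular regulators of the BMP SMADs were measured and none was 1.5-fold apart (median 0.04, 11 above 0 and 7 below). Tob1, a protein that represses SMAD signalling, was at 3018 and 2180 (0.47, spread 0.27). Nedd4l, a ubiquitin ligase for SMADs, was at 381 and 545 (-0.52, spread 0.33), with -0.77 in its other probe set. Ctdsp2, a SMAD phosphatase, was at 0.41, but its other probe sets gave -0.26 and -0.46.

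Of 19 further genes known as BMP targets in various tissues, 16 were measured, 9 above 0 and 7 below, with a median of 0.06 that turned negative after quantile normalization, with the mean over probe sets and without suffixed probe sets. Dusp9, a phosphatase that dampens ERK signalling and a known BMP target in mouse embryonic stem cells, was lower in 3 of 3 probe sets. Its signals were 1958 against 3468 (-0.82, spread 0.27), 1960 against 3312 (-0.76) and 1123 against 1772 (-0.66), with a mean of -0.75 ± 0.08 (SD over 3 probe sets). Msx2, a homeobox target gene, had 151 against 232 (-0.62, spread 0.45). Hand1, a bHLH factor of extraembryonic tissue and heart, was above the floor in the knockdown array only, with 95.3 against 11.2, and was higher by at least 1.47-fold (log2 ratio 0.56). It was at 1.90 with the floor at the 30th percentile, at 3.09 with no floor and at 1.08 with the pseudocount. Dusp9 and Msx2 were the targets counted as at least 1.5-fold lower; none was counted as 1.5-fold higher at this floor, where Hand1 has only a lower bound, as do Nkx2-5 and Dlx3 on the low side. Dusp9 and Msx2 went with Bmp4 in direction. So did Msx1 (-0.34), Cdx2 (-0.33) and Tbx3 (-0.11), each within its spread, and Nkx2-5 and Dlx3, above the floor in the control only. Cdx2 and Tbx3 each had another probe set above 0. Smad7, Id3 and Smad6, the last within its spread, did not go with Bmp4. Nor did the targets Tagln (0.55, spread 0.20), Junb (0.51, spread 0.42) and Prdm1 (0.42, spread 0.38). Msx1, Cdx2, Tbx3, Nkx2-5, Dlx3, Tagln, Junb and Prdm1 are named outside the rule, after their values were seen. Whether these groups of targets differ from each other could not be tested with 1 array per group.

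**Figure D4:**
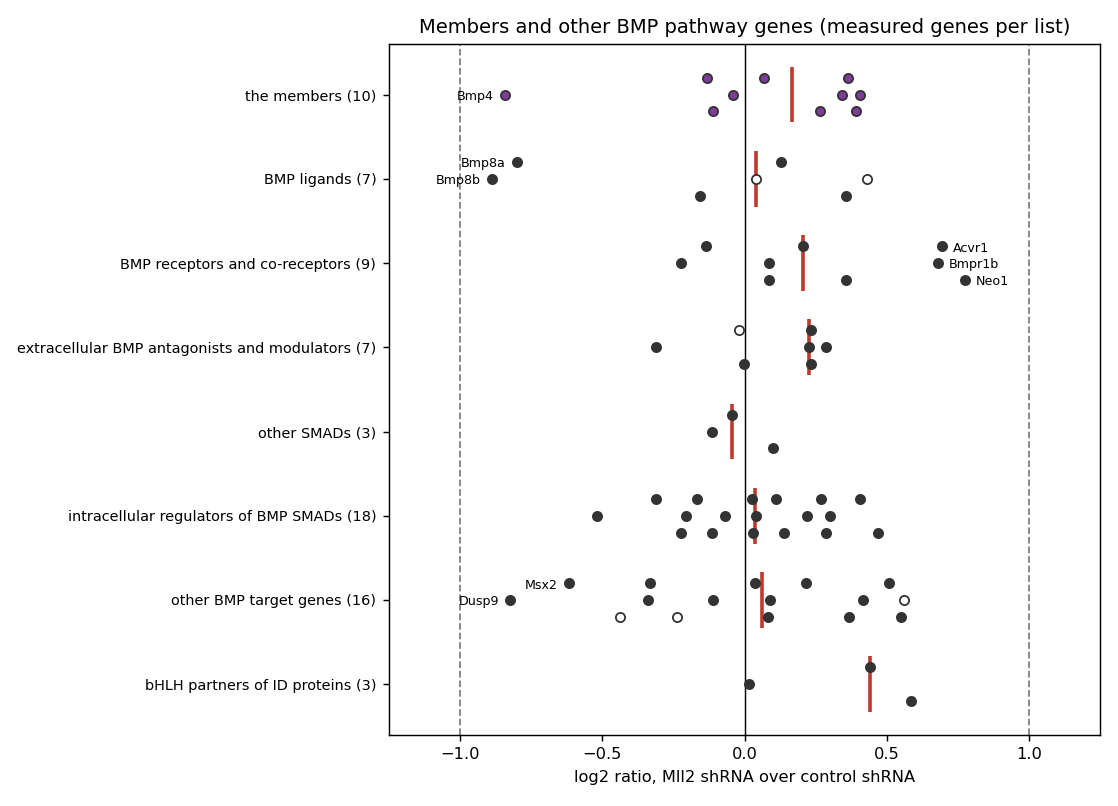
Log2 ratio of Mll2 shRNA over control shRNA (x axis) of each measured gene in the 10 members and the 7 pathway lists (rows, number measured in parentheses), with the median as a red bar, dashed lines at 2-fold and open circles for genes above the floor on 1 array only. Genes with a ratio of at least 0.60 in size are labelled; Bmp4, Bmp8b, Bmp8a, Dusp9 and Msx2 lie on the low side and Neo1, Acvr1 and Bmpr1b on the high side.

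The proteins that ID proteins bind were also read. Of the 3 E-protein genes, Tcf4 had 1827 against 1218 (0.59, just over 1.5-fold, spread 0.28), although its 5 probe sets ran from -0.16 to 0.98. Tcf12 had 3066 against 2261 (0.44, spread 0.26), and its other probe sets were also above 0, from 0.32 to 1.01. Tcf3 was level at 1050 and 1038 (0.02), and turned negative after quantile normalization, after loess and with the mean over probe sets (-0.10). The median of the 3 genes was 0.44.

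Markers of other cell types were read beside these results. Of 8 trophoblast markers, 7 were measured, 5 of them lower in the knockdown array like Bmp4 and 2 higher. The summed signal of the 7 was 21345 against 29819 in the control, most of it from Krt8 and Krt18. The 2 higher were Hand1 (95.3 against 11.2) and Eomes, at 226 against 199 (0.18) with -0.92 in its other probe set. Cdx2 was at -0.33, with 0.0006 in its other probe set. Of the 8, Cdx2 and Hand1 are also in the list of BMP targets. Krt8 was at 9200 against 13635 (-0.57), Krt18 at 11117 against 14840 (-0.42) and Krt7 at 328 against 585 (-0.84), and Elf5 was below the floor on both arrays. Ascl2 was above the floor in the control only and was lower by at least 2.05-fold (47.8 against 132), with -0.12 in its other probe set. The summed signals of the measured markers were 943 and 827 for fibroblasts or feeder cells (7 of 12 measured), 2839 and 2667 for primitive endoderm (6 of 8), 236 and 228 for mesoderm (3 of 6) and 1251 and 1006 for neural progenitors (4 of 5), with the knockdown array given first. Such sums add signals that are not on a common scale and can hide single markers. Sox1, a neural progenitor marker, was at 286 against 114 (1.33, or 2.51-fold, spread 0.45), and Hes5 was higher by at least 1.89-fold (122 against 16.3). The other measured neural markers did not share this. Pax6 was level at 581 and 556 (0.06), and Nes was at 261 against 319 (-0.29, spread 0.39), with -0.51 in its other probe set. Col5a2, a fibroblast collagen, was above the floor in the knockdown array only and was higher by at least 2.35-fold (152 against 44.7), with 0.06 in its other probe set. Of the 7 measured fibroblast markers, 4 were above 0 and 3 below. Those below were Col1a1 (33.9 against 96.5, at least 1.49-fold lower), S100a4 (58.7 against 85.9, at least 1.33-fold lower) and Pdgfrb (-0.39). Among the mesoderm markers, Hand1 was at 95.3 against 11.2 and Mesp1 at 30.4 against 85.6, in opposite directions. Single markers were picked after their values were seen. The fibroblast markers Thy1, Pdgfra, Lum, Dcn and Postn were below the floor on both arrays. The part of these cell types in the member ratios was not tested.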

How the data were processed

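Messenger RNA was measured in 2 samples of E14 cells, 1 array per group, grouped by the labelled shRNA. The authors made the signals with MAS5, per the submitters' processing notes; it gives 1 signal per probe set and scales each array. The deposited values are on the log2 scale, and 2 to their power had a 2% trimmed mean of 500.0 on each array. Its version and a genome build are not given in the sources used for this work. Detection calls were not used. Symbols came from the platform annotation, updated by Entrez number to RefSeq GRCm38.p6.

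Values were used as deposited. Those under the floor (50th percentile of both arrays, log2 6.02) were raised to it, and a gene or probe set was measured if above it on at least 1 array. A ratio with 1 array below the floor is a lower bound in size, written "at least". Ratios are Mll2 shRNA minus control on the log2 scale. All probe sets of a member are given. For other genes the rule named, per list, the 3 measured genes with the largest ratio in size and any at 2-fold. The arrays give 1 difference per gene, so no genes were ranked by likeness of pattern. Levels are not compared between genes, because signals of different probe sets are not on a common scale. The small number of arrays limits the precision.

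The members, lists and alternatives were chosen with earlier results of these data known. The calling steps were tested on simulated data. The simulated noise was smaller than the spread at the members, and differences were placed only well above the floor. That test therefore does not speak for calls near the floor. Alternatives were median centring, quantile normalization, loess (limma 3.58.1 in R 4.3.3), scaling on 18 spike-in control probe sets, the 30th or the 70th percentile as the floor, none at all, the floor signal as a pseudocount, averaging a gene's probe sets, dropping suffixed probe sets, and thresholds of 1.5-fold and 3-fold. Python 3.11.15 with numpy 2.4.6 and pandas 2.3.3 was used.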

Additional observations from a re-analysis of the deposited data

How the results depend on the processing

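The member results changed little with the processing. No member gene or probe set reached 2-fold under any of the 4 other scalings, the other floors, the pseudocount, the other probe set rules, or at 3-fold. At 1.5-fold, 4 probe sets and 1 gene did. The median of the member genes ran from 0.16 to 0.31. Of 99 member values under the 10 alternatives that give one, 98 moved by less than the spread at their level, and Id2 moved to 0.31 without suffixed probe sets. Much of this count was fixed by the settings. The probe sets used for the members lay above every floor tried, so another floor or none could not move them. Spike-in scaling shifts all such ratios alike, by 0.12, less than the smallest member spread of 0.20. Averaging cannot change a gene with 1 measured probe set. Id4 turned to 0.27 with the mean over probe sets. Bmpr1a fell to 0.02 with that mean. Of 225 values of other named genes, 10 moved by more than the spread. Hand1 rose from 0.56 to 1.90, 3.09 and 1.08 with the 30th percentile floor, no floor and the pseudocount. With the mean over probe sets and then without suffixed ones, Neo1 went from 0.77 to 0.46 and 0.40, Twsg1 from 0.23 to -0.12 and -0.29, and Ctdsp2 from 0.41 to -0.11 and -0.26. Bmp8b went from -0.89 to -0.21 with the floor at the 70th percentile, which lies above part of its signal.

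The count of all genes at 2-fold, 289 as deposited, depended on the floor: 976 with the 30th percentile, 88 with the 70th, 3497 with no floor and 157 with the pseudocount. It was 1426 at 1.5-fold and 45 at 3-fold. The share of these 289 that were higher was 59.9%, and with spike-in scaling it was 75.9% of 340, which moved the median of all genes from 0.03 to 0.14. No replicate could be left out, and no paired analysis was possible because each group has 1 array.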

Other observations

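Several pathway genes outside the members had probe sets that disagreed by more than the ratios reported for them. They were picked after their values were seen. Map3k7, which encodes the kinase TAK1, was at -0.17 in the probe set used and at up to 0.94 in the others (0.11 ± 0.47, SD over 5 probe sets). Eng, a co-receptor known from endothelium, was at 0.09 and at 0.79 in its other probe set. Gata2 was at 0.08 and at -0.53 in its other probe set. For Bmpr2, the type II receptor of BMP4, all 3 probe sets were above 0, from 0.17 to 0.74 (0.37 ± 0.32, SD over 3).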
